A study of Arabidopsis thaliana with 6 samples.

Results

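Transcripts of the mitochondrial genome were compared between 2 brassinosteroid mutants of Arabidopsis thaliana, bzr1-1D and det2, in whole seedlings. The members were the probe sets that the array annotation gives to exactly 1 gene, where that gene is encoded in the mitochondrial genome or has a locus number from AT2G07620 to AT2G07790, the interval of chromosome 2 that holds a copy of mitochondrial DNA. There were 60 of them, for 53 genes, among 22746 probe sets that are not controls, and single-gene probe sets covered 13350 genes in all. The mitochondrial genome itself had 23 probe sets for 16 genes, because nad1 had 7 and nad5 had 2, and the chromosome 2 interval had 37 probe sets for 37 loci.

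Both genotypes were in the Columbia-0 background. In bzr1-1D the transcription factor BZR1, on which the hormone signal ends, is held active by a dominant mutation. The det2 mutant cannot make enough hormone because its steroid reductase is missing. Seedlings of both grew for 5 days in shaken liquid medium with sucrose, under constant light at 22 °C, and then received a small volume of 80% ethanol as a mock treatment for 3 hours, so every array carries that treatment. Each genotype was sampled once in each of 3 experiments run in different weeks, which gave 6 Affymetrix ATH1 arrays. Each array holds RNA pooled from the many seedlings of a flask, and the labels call the arrays biological replicates. Wild-type arrays were not used here. BZR1 and DET2 have 0 single-gene probe sets in the annotation and were not analysed here.

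Plant mitochondria keep a genome that encodes a part of the respiratory chain, of the machinery that attaches heme to cytochrome c, and of the mitochondrial ribosome. Most other mitochondrial proteins are encoded in the nucleus and imported. The transcripts are made by RNA polymerases of phage type, undergo splicing and C-to-U editing, and, unlike nuclear mRNAs, are marked for decay by polyadenylation. In the Columbia accession a large piece of mitochondrial DNA lies near the centromere of chromosome 2 with nearly the same sequence, so a probe often cannot tell a mitochondrial transcript from one of the nuclear copy. Of the members, 5 mitochondrial genome and 20 chromosome 2 probe sets have names ending in _s_at, the maker's mark for probes that match several transcripts. A value of either kind can therefore hold signal from both places.

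The values are intensities on a linear scale, set by the authors to a target of 500 per array. Array medians over all probe sets ran from 214 to 218 in bzr1-1D and from 213 to 221 in det2, and between 19.6% and 21.5% of probe sets were below an intensity of 50. Every log2 difference below is log2(intensity + 50) of bzr1-1D less that of det2, a scale that makes differences of dim probe sets look smaller. With only 3 arrays of each genotype, precision is limited. Of the markers of seedling tissue, RCA and PORB of green tissue were bright on all arrays, while the root hair expansins EXPA7 and EXPA18 lay between 44.2 and 291.5. The flower markers had 0 named probe sets.

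Mitochondrial genome transcripts stood lower in bzr1-1D than in det2 across most of the measured genes, by small amounts, and no single probe set passed the test. Of the 23 probe sets, 21 had a log2 difference below 0 and 2 above 0, with a median of -0.31 (from -0.70 to 0.24). Over all 22746 probe sets the median was -0.01 and 52.4% were below 0. All 3 experiments placed bzr1-1D lower for 16 of the 23 and higher for 0, while 15.5% of all probe sets were lower in bzr1-1D in all 3. Tested with limma, with experiments as blocks and p-values adjusted by Benjamini-Hochberg across the whole array, 0 members passed an adjusted p of 0.05, and 0% of all probe sets did. The adjusted p of the members ran from 0.696 to 0.997.

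At an unadjusted p under 0.05 by limma, 8 of the 23 probe sets were counted, all 8 lower in bzr1-1D, where 4.10% of all probe sets were lower at that p and 6.84% were counted in either direction. The 8 became 9 without experiment 1, 5 without experiment 2 and 4 without experiment 3. The count over all probe sets in either direction, 1556 with all experiments, moved the same way. It was 2222, 1241 and 768 without experiments 1, 2 and 3. The number of the 23 with a log2 difference below 0 was 19, 21 and 22 without experiments 1, 2 and 3. The median intensity of the 23 on an array was 210, 184 and 174 in bzr1-1D in experiments 1, 2 and 3, against 237, 248 and 253 in det2. All bzr1-1D medians were thus below all det2 medians. In whole seedlings, fewer cells of a type and less RNA per cell cannot be told apart.

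Signs of RNA quality and of tissue make-up moved with the genotype in part. The actin control, 3′ over 5′ signal, was 1.24, 1.22 and 1.25 in bzr1-1D in experiments 1, 2 and 3, against 1.27, 1.38 and 1.33 in det2. A second pair of actin controls gave 3.37, 3.14 and 8.18 in bzr1-1D against 5.46, 5.3 and 3.66 in det2, so the genotypes overlapped. Both pairs of GAPDH controls overlapped too. The first ran from 0.463 to 0.757 in bzr1-1D and from 0.461 to 0.8 in det2. The second read 1.02 and 1.16 in bzr1-1D in experiments 1 and 2, against 1.09 and 1.1 in det2. Only the first actin pair thus separated the genotypes. The summed intensity of the root markers, of which 2 of 4 were measured and neither was at 0, ran from 130.8 to 333.1 in bzr1-1D and from 419.7 to 549.0 in det2. That of the green markers, 2 of 4 measured, ran from 16997.2 to 20878.1 in bzr1-1D and from 18385.7 to 18916.1 in det2. Within that sum PORB ran from 7160.6 to 9402.5 in bzr1-1D and from 5322.4 to 6252.7 in det2, a log2 difference of 0.45 ± 0.14 (SE) with no overlap, while RCA had -0.24 ± 0.16 (SE) and overlapped. The 1 measured seed storage marker of 4, PAP85, ran from 43.1 to 78.7 in bzr1-1D and from 57.3 to 127.5 in det2. The tissue markers were chosen with earlier results of these data known, so their differences are a description only. The part of RNA quality and of tissue make-up in the differences of mitochondrial transcripts was not tested.

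**Figure D1:**
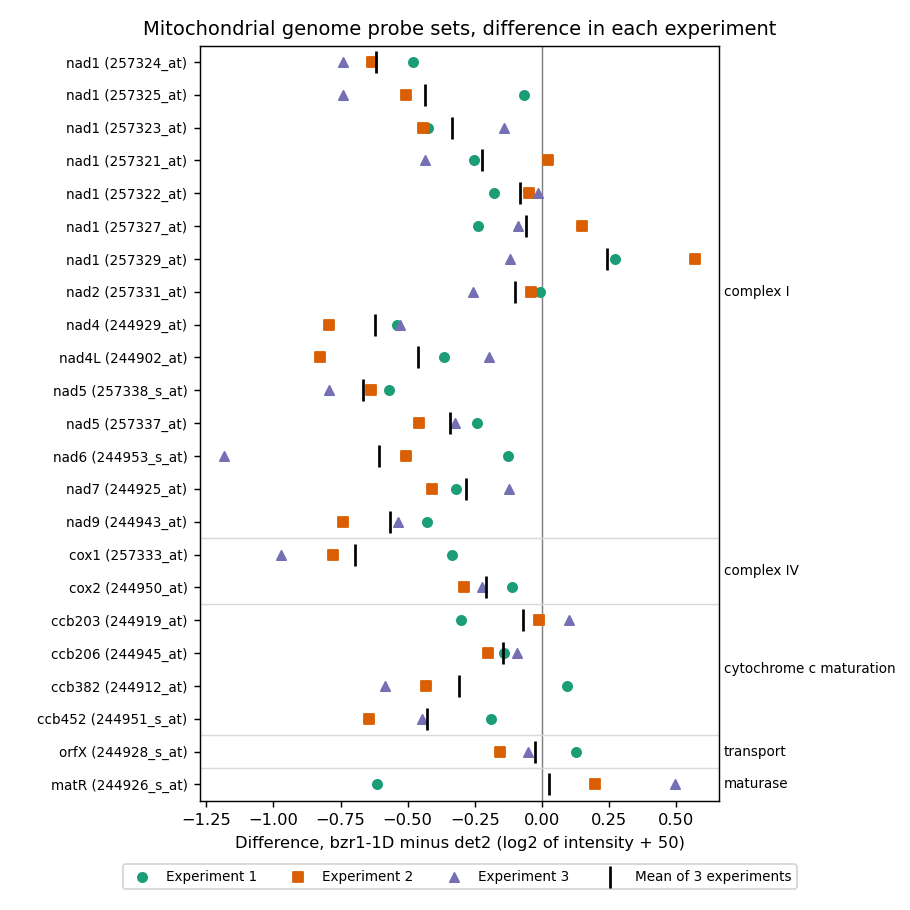
Difference between bzr1-1D and det2 for the 23 mitochondrial genome probe sets, as log2(intensity + 50). Each row is a probe set, grouped by the role of its gene, the coloured symbols are the 3 experiments and the black bar is their mean. In 16 rows all 3 symbols lie left of 0, and the 2 rows with a mean right of 0 are nad1 (257329_at) and matR.

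Complex I, the NADH dehydrogenase that passes electrons from NADH to ubiquinone, supplied 15 of the 23 probe sets, from 8 nad genes that encode its membrane and arm subunits. Of these 15, 7 belong to nad1 alone. The median log2 difference was -0.34. A difference below 0 was found for 14, 12 were lower in bzr1-1D in each experiment, and limma gave 6 an unadjusted p under 0.05, all lower. Over all probe sets 52.4% were below 0, 15.5% were lower in each experiment and 4.10% were lower at that p. The arrays of the genotypes did not overlap for 5 of the 15, nad1 (257324_at), nad4L, nad5 (257338_s_at), nad7 and nad9, each lower in bzr1-1D. Such a gap was found in 5.58% of all probe sets.

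The gene nad5 encodes a proton-pumping membrane subunit, and its transcript is joined by trans-splicing from separately transcribed pieces. Probe set 257338_s_at read 341.3, 204.5 and 211.1 in bzr1-1D in experiments 1, 2 and 3, against 531.2, 345.8 and 402.9 in det2. The highest bzr1-1D array lay just below the lowest det2 array. Within experiments the differences were -0.57, -0.64 and -0.79, which gave a log2 difference of -0.67 ± 0.13 (SE) with a limma adjusted p of 0.700. The other nad5 probe set, 257337_at, had -0.34 ± 0.13 (SE), with 151.0, 89.5 and 121.2 in bzr1-1D, against 187.9, 141.5 and 164.1 in det2, and its genotypes overlapped.

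For nad4, another membrane subunit, the intensity was 611.7, 346.8 and 337.5 in bzr1-1D, against 912.3, 638.2 and 508.7 in det2. Experiment 1 was the brightest in both genotypes, so the genotypes overlapped although bzr1-1D was lower in every experiment. The log2 difference was -0.62 ± 0.13 (SE), with -0.54, -0.79 and -0.53 within experiments 1, 2 and 3. The subunit gene nad9, of the arm that reaches into the matrix, read 242.3, 169.4 and 196.6 in bzr1-1D, against 342.9, 316.3 and 307.4 in det2. All bzr1-1D arrays were below all det2 arrays, and the log2 difference was -0.57 ± 0.13 (SE).

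The genes nad4L, nad6, nad7 and nad2 also had log2 differences below 0. The small membrane subunit gene nad4L had 172.6, 118.6 and 158.6 in bzr1-1D, against 236.9, 249.1 and 188.9 in det2, which gave -0.46 ± 0.17 (SE) on the log2 scale and -0.28 without experiment 2. The membrane subunit gene nad6 had 101.1, 146.7 and 95.2 in bzr1-1D, against 115.1, 229.1 and 280.2 in det2. Its difference was uneven, at -0.13, -0.50 and -1.19 within experiments 1, 2 and 3, with a mean of -0.61 ± 0.24 (SE) that was -0.32 without experiment 3. The matrix arm gene nad7 was dim, between 14.0 and 34.1 in bzr1-1D and between 35.0 and 41.6 in det2, so its log2 difference of -0.28 rests on intensities below the offset of 50. The trans-spliced nad2 was dimmer still, with means of 3.17 ± 1.86 (SD, n = 3) in bzr1-1D, against 7.20 ± 5.82 (SD, n = 3) in det2, and carries little information.

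The 7 probe sets of nad1, a membrane subunit whose transcript is also assembled by trans-splicing, differed among themselves. Their log2 differences ran from -0.62 to 0.24 with a median of -0.22, 6 were below 0 and 4 were lower in bzr1-1D in each experiment. Probe set 257324_at read 172.4, 183.6 and 165.4 in bzr1-1D, against 260.6, 312.3 and 309.9 in det2, with no overlap and a log2 difference of -0.62 ± 0.13 (SE). At the other end, 257329_at read 108.6, 118.6 and 138.6 in bzr1-1D, against 81.2, 63.4 and 154.7 in det2, a difference of 0.24 ± 0.18 (SE) whose sign changed in experiment 3. It was 0.078 without experiment 2 and 0.42 without experiment 3. Between them, 257322_at was nearly level, with means of 238 ± 16.4 (SD, n = 3) in bzr1-1D, against 255 ± 35.5 (SD, n = 3) in det2. The others were 257325_at (-0.44), 257323_at (-0.34), 257321_at (-0.22) and 257327_at (-0.06), with the log2 difference in brackets, and 257327_at was below an intensity of 50 on every array. Leaving out experiment 3 gave -0.29 for 257325_at and -0.12 for 257321_at, and leaving out experiment 2 gave -0.34 for 257321_at. Which part of the nad1 transcript each one covers is not given in the sources used here.

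**Figure D2:**
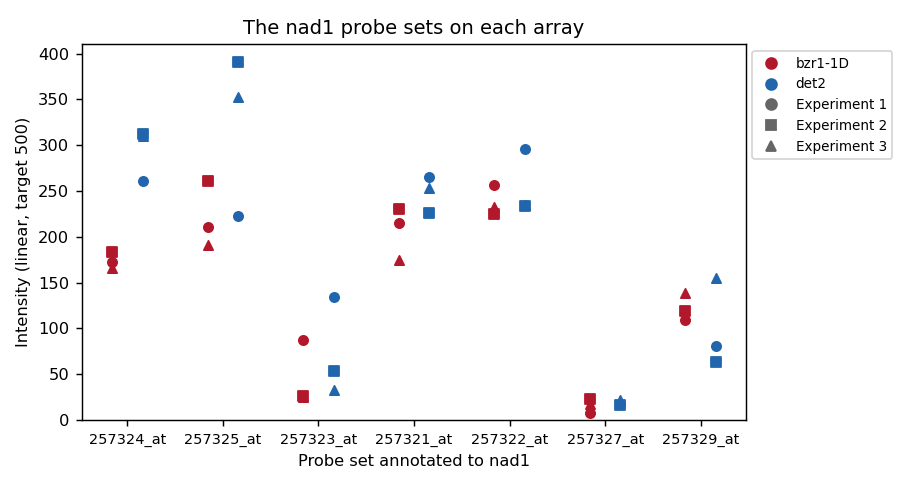
Intensity on the linear scale of the 7 probe sets annotated to nad1 on each of the 6 arrays, with bzr1-1D left of det2 in each pair and symbols for the 3 experiments. Probe set 257324_at has all bzr1-1D arrays below all det2 arrays, while 257329_at, at the right, has 2 of 3 experiments the other way.

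Complex IV, cytochrome c oxidase, was measured by cox1 and cox2, which encode the subunits that carry its heme and copper centres. The level of cox1 was 571.8, 340.8 and 315.2 in bzr1-1D in experiments 1, 2 and 3, against 734.4, 620.5 and 666.2 in det2. The genotypes did not overlap, and the size of the gap varied, with -0.34, -0.78 and -0.97 within experiments 1, 2 and 3. The log2 difference of cox1 was -0.70 ± 0.17 (SE), the lowest of the 23, with a limma adjusted p of 0.700. For cox2 the level was 324.5, 302.7 and 256.7 in bzr1-1D, against 354.3, 381.7 and 308.0 in det2. Each experiment placed bzr1-1D lower, with differences of -0.11, -0.29 and -0.22, but the arrays overlapped, and the log2 difference was -0.21 ± 0.13 (SE).

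Cytochrome c maturation, the attachment of heme to apocytochrome c, had 4 genes. All 4 log2 differences were below 0 with a median of -0.23, where 52.4% of all probe sets were below 0. The genes ccb452, ccb382 and ccb203, now called ccmFC, ccmFN1 and ccmFN2, encode parts of the heme lyase. The level of ccb452 was 1141.0, 563.2 and 597.5 in bzr1-1D, against 1308.9, 907.0 and 832.2 in det2. Both arrays of experiment 1 exceeded all others, and the difference of -0.43 ± 0.15 (SE) was smaller than the span of 0.75 between experiments. For ccb382 the level was even in bzr1-1D, with 1190.6, 1223.1 and 1270.3, while det2 had 1113.0, 1668.3 and 1929.7. Experiments 1, 2 and 3 gave differences of 0.09, -0.43 and -0.58, and the genotypes overlapped. The mean of -0.31 ± 0.18 (SE) was -0.51 without experiment 1 and -0.17 without experiment 3. The transporter gene ccb206, now ccmB, had -0.14 ± 0.12 (SE). For ccb203, dim at 25.6, 64.7 and 26.1 in bzr1-1D, against 43.2, 65.6 and 21.0 in det2, the difference was -0.07 ± 0.14 (SE).

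The last pair of genes had log2 differences close to 0. The gene orfX, now mttB, encodes a membrane protein related to the bacterial TatC translocase. Its intensity was 299.1, 263.1 and 265.7 in bzr1-1D, against 269.4, 298.4 and 276.8 in det2, so the genotypes overlapped, and the log2 difference was -0.03 ± 0.13 (SE). The maturase gene matR, which lies within an intron of nad1 and helps introns splice, had 105.3, 18.0 and 49.9 in bzr1-1D, against 187.6, 9.2 and 20.8 in det2. Experiment 1 stood far above the others in both genotypes, a span of 1.60 on the log2 scale, and its difference of 0.03 ± 0.25 (SE) was -0.61 in experiment 1 and 0.50 in experiment 3.

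**Figure D3:**
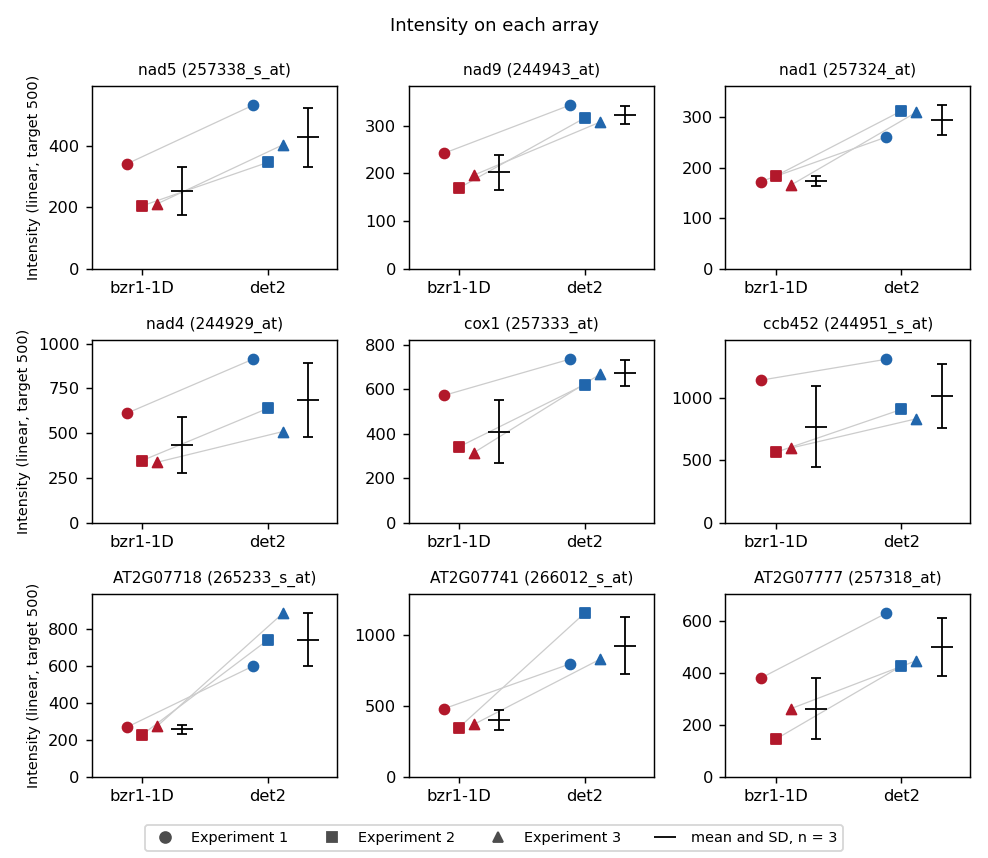
Intensity on the linear scale on each array for 9 probe sets, 6 of mitochondrial genome genes and 3 of chromosome 2 loci, with bzr1-1D left of det2. Grey lines join arrays of the same experiment, and the black marks are the mean and SD over 3 arrays. Every line climbs from bzr1-1D towards det2, and the genotypes overlap for nad4 and ccb452, where experiment 1 was brighter in both. The 9 were picked from probe sets lower in bzr1-1D, so the shared direction of the lines follows from that choice. Of all 23 mitochondrial genome probe sets, 16 were lower in bzr1-1D in each experiment.

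A further 12 probe sets, which are no members, are given by the annotation to several genes of which at least 1 is mitochondrial, and 11 of these also carry a chromosome 2 locus of the interval. They are not named here because their signal cannot be assigned. All 12 had a log2 difference below 0, from -0.88 to -0.03 with a median of -0.39, beside 52.4% of all probe sets below 0. Of the 12, 7 were lower in bzr1-1D in each experiment. By limma 0 of the 12 passed an adjusted p of 0.05, while 6 were under 0.05 before adjustment, all lower in bzr1-1D, beside 4.10% of all probe sets lower at that p and 15.5% lower in each experiment.

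The loci of the chromosome 2 interval were spread around a smaller difference, with a few far out. Of 37 probe sets, 24 were below 0 and 13 above, with a median of -0.09, and 12 were lower in bzr1-1D in each experiment while 2 were higher in each. Over all probe sets 52.4% were below 0, 15.5% were lower in each experiment and 12.4% were higher in each. Without experiment 2 the median was -0.13. At an unadjusted p under 0.05 by limma there were 4, all lower in bzr1-1D, where 4.10% of all probe sets were lower at that p. On all 6 arrays 12 of the 37 stayed below an intensity of 50, and 18 reached a mean of at least 100 in a genotype. Among those 18 the median was -0.10. In the gene order of the gene table, 28 of the loci lie between the outermost transfer RNA entries of the interval and 9 lie outside them. The 28 had a median of -0.08 and the 9 a median of -0.11. All 4 with an unadjusted p under 0.05 by limma were among the 28. A mean of at least 100 in a genotype was reached by 17 of the 28 but only 1 of the 9, so the 2 parts cannot be compared by that count.

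AT2G07718 had the lowest log2 difference of all members. Its intensity was 268.9, 227.4 and 274.4 in bzr1-1D in experiments 1, 2 and 3, against 599.1, 742.1 and 886.8 in det2. The bzr1-1D arrays lay close together and far below every det2 array, and the bzr1-1D mean was 0.346 of the det2 mean. The log2 difference was -1.36 ± 0.16 (SE), with -1.03, -1.51 and -1.53 within experiments. Its limma p was 0.000557 before and 0.696 after adjustment over all probe sets.

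AT2G07741 came next, with 480.3, 347.1 and 370.5 in bzr1-1D, against 796.7, 1157.0 and 829.6 in det2. The genotypes did not overlap, and the log2 difference was -1.11 ± 0.21 (SE), widest in experiment 2 at -1.60. The next, AT2G07777, had 378.8, 144.0 and 261.3 in bzr1-1D, against 628.9, 425.5 and 446.4 in det2, which gave -0.88 ± 0.18 (SE) on the log2 scale. It was brightest in experiment 1 in both genotypes, and all bzr1-1D arrays were still below all det2 arrays. These loci are protein-coding entries of the gene table with no product named there, and the probe sets of AT2G07718 and AT2G07741 end in _s_at.

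The pseudogene AT2G07700, outside the transfer RNA entries, had 50.2, 59.0 and 133.3 in bzr1-1D, against 95.2, 167.9 and 138.7 in det2, and its log2 difference was -0.53 ± 0.22 (SE), with -0.54, -0.999 and -0.04 within experiments 1, 2 and 3. Without experiment 2 it was -0.29. AT2G07732, singled out after its values were seen, was dim but did not overlap, with 4.3, 2.6 and 3.8 in bzr1-1D, against 30.5, 26.1 and 24.5 in det2. All 6 values are below the offset, where the scale compresses differences, and the log2 difference was -0.52 ± 0.12 (SE).

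At the other end, the highest differences among loci with a mean of at least 100 were small beside their errors. For AT2G07724 the value was 0.10 ± 0.27 (SE), made of 0.77, -0.52 and 0.04 within experiments 1, 2 and 3. AT2G07722 had 0.05 ± 0.26 (SE), AT2G07695 0.04 ± 0.15 (SE) and AT2G07773 0.02 ± 0.14 (SE). Each of these 4 changed sign between experiments. Arrays of the genotypes did not overlap for 8 of the 37 loci, 7 with bzr1-1D lower and 1 with bzr1-1D higher, where 5.58% and 3.74% of all probe sets did so. The 1 was the pseudogene AT2G07740, at 6.7, 22.2 and 9.0 in bzr1-1D and at 2.0, 2.2 and 1.6 in det2.

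**Figure D4:**
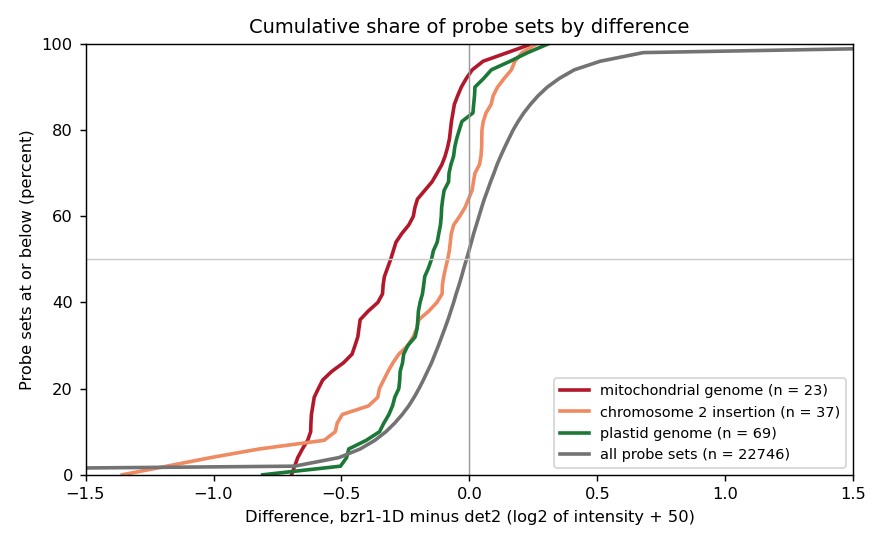
Cumulative percent of probe sets at or below a given difference, bzr1-1D minus det2 in log2(intensity + 50), drawn at every 2 percent. The curve of the 23 mitochondrial genome probe sets crosses 50% at -0.31 and that of all 22746 at -0.01, with the plastid genome at -0.15 and the chromosome 2 interval at -0.09.

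The plastid genome, the other organelle genome, had 69 single-gene probe sets. Of these 57 were below 0, with a median of -0.15, and 24 were lower in bzr1-1D in each experiment. Over all probe sets 52.4% were below 0 and 15.5% were lower in each. In experiments 1, 2 and 3 the median within-experiment difference of the mitochondrial genome probe sets was -0.24, -0.43 and -0.26, and that of the plastid probe sets was -0.15, -0.24 and -0.09. The difference between the organelles was not tested.

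Nuclear genes of mitochondrial function were read from lists of 31 loci, of which 11 had a named probe set, and SDH1-2 was added by its symbol. Of their 13 probe sets, 9 had a log2 difference above 0 and 4 below, with a median of 0.26, where 52.4% of all probe sets were below 0. By limma 0 passed an adjusted p of 0.05. Only 1 of the 13 had an unadjusted p under 0.05, beside 6.84% of all probe sets. CYTC-2, a cytochrome c that carries electrons to complex IV, had 1337.0, 1142.3 and 1217.0 in bzr1-1D, against 1217.5, 503.5 and 471.3 in det2. It was higher in bzr1-1D in every experiment, though little so in experiment 1, and the log2 difference was 0.84 ± 0.26 (SE) with a limma p of 0.0269 before and 0.704 after adjustment. The other cytochrome c gene, CYTC-1, had 0.09 ± 0.14 (SE).

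Complex II, succinate dehydrogenase, has its subunits encoded in the nucleus in Arabidopsis. Its flavoprotein gene SDH1-1 had 2663.1, 2324.6 and 2205.6 in bzr1-1D, against 2396.4, 1797.8 and 1520.1 in det2, which gave 0.34 ± 0.14 (SE) on the log2 scale. The iron-sulfur subunit gene SDH2-2 had 0.39 ± 0.18 (SE), and SDH2-1 had 0.32 ± 0.15 (SE) in its bright probe set. These 3 probe sets were higher in bzr1-1D in each experiment, as were 12.4% of all probe sets. Apart from CYTC-2, the rest of the list was mixed over experiments, with -0.02 ± 0.29 (SE) for the dim second flavoprotein gene SDH1-2, -0.0021 ± 0.14 (SE) for AT3G15640 and 0.05 ± 0.13 (SE) for the dim second probe set of SDH2-1, beside CYTC-1. The summed intensity of the 8 respiratory chain probe sets was 14450.4, 16449.0 and 16113.5 in bzr1-1D against 14358.2, 12887.3 and 13053.9 in det2. The alternative NAD(P)H dehydrogenase gene NDB2 spread widely over the experiments, at 768.4, 1545.0 and 519.9 in bzr1-1D, against 1106.6, 678.2 and 317.8 in det2. Of the loci listed for mitochondrial stress, AT2G21640 had -0.49 ± 0.27 (SE), AT5G09570 0.26 ± 0.39 (SE) and AT5G51440 0.63 ± 0.28 (SE), and AT5G15700, listed with the organelle RNA polymerases, had -0.03 ± 0.19 (SE).

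The members were also compared between experiments. With limma's F test of the experiment, genotype held, 0 of the 60 members passed an adjusted p of 0.05, and 0% of all probe sets did. At an unadjusted p under 0.05 there were 8 of the 60, 6 of them among the 23 mitochondrial genome probe sets, where 11.1% of all probe sets were counted. Both arrays of experiment 1 were above all 4 others for 11 of the 60, against 12.7% of all probe sets. Among the 23 these were ccb452, matR and nad1 (257322_at and 257323_at), while ccb382 and the dim nad2 were lowest in experiment 1. Of the chromosome 2 loci with a mean of at least 100 in a genotype, those with the widest spans between experiments, on the log2 scale averaged over the genotypes, were AT2G07777 (0.83), AT2G07722 (0.77), AT2G07700 (0.62) and AT2G07674 (0.62). The plastid probe sets had experiment 1 above all others in 38 of 69. A first GAPDH control ratio, 3′ over 5′, also set experiment 1 apart, at 0.757, 0.463 and 0.496 in bzr1-1D, against 0.8, 0.461 and 0.474 in det2. A second pair of GAPDH controls did not. In that pair experiment 1 read 1.02 in bzr1-1D and 1.09 in det2, between the other experiments in each genotype. Neither pair of actin controls set experiment 1 apart. The part of RNA quality in the differences between experiments was not tested.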

How the data were processed

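Intensities were measured on 6 Affymetrix ATH1 arrays. Per the labels, the authors hybridised biotinylated cRNA and scaled the intensities to a target of 500 in GCOS 1.1. Their later step in GeneSpring 7.0, division by an array percentile and by wild-type values, is not in the deposited intensities. Annotation came from the platform table and the TAIR10.1 gene table, which served for names and gene order only. The 23 mitochondrial genome probe sets were matched by symbol or synonym, and the chromosome 2 probe sets by gene identifier or locus. Each probe set was kept apart.

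Intensities were raised by 50, log2-transformed and tested with limma 3.58.1 in R 4.3.3, two-sided, over all 22746 probe sets with no filter on dim ones. Of these, 13513 have 1 gene, 503 several and 8730 none in the annotation. The labels state that genotypes were grown alongside each other, so same-numbered arrays are paired and the experiment was a block. Deviations from the genotype means correlated at 0.387, 0.08 and 0.373 within experiments 1, 2 and 3, and at most at 0.107 between different ones, so the pairing of experiment 2 rests on the labels. Differences between experiments were tested with limma's F test. The computations were tested on simulated data.

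The members, lists and tests were chosen with earlier results of these data known. Named were all mitochondrial genes with a known product and, of the chromosome 2 loci with a mean of at least 100 in a genotype, the 4 highest and 4 lowest differences and the 4 widest spans between experiments. Alternatives were other offsets, scalings, filters, variance models, blocks and leaving out each experiment. Sequences were not analysed here. Figures were drawn with matplotlib 3.10.9.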

Additional observations from a re-analysis of the deposited data

How the results depend on the processing

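The number of arrays and the dimness of many members limit these results. With the experiment as replicate block, limma called 0 of the 22746 probe sets at an adjusted p of 0.05 (1556 at an unadjusted p under 0.05). The count was 1 with no replicate block, and the random-effect form of the replicate block also gave 1, in neither case a member. The pairing by experiment changed no other call. The count of members past the threshold was 0 under every alternative run, for genotype and for experiment. At an unadjusted p under 0.05 by limma the count of lower mitochondrial genome probe sets, 8 with the block, was 5 without it. The count over all probe sets in either direction fell from 1556 to 1122. Centring each array on its median gave 6 of the 23, beside 1537 of all probe sets. The robust variance model with a trend also gave 6, beside 1511 of all probe sets.

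The median log2 difference of the 60 members, -0.14, was -0.28 with a mean intensity of at least 100, -0.38 with no offset (floor of 0.1), -0.24 with an offset of 16 and -0.21 without _s_at and _x_at probe sets. Leaving out 1 experiment gave -0.21 to -0.16. That of the mitochondrial genome, -0.31, was -0.43 with a mean of at least 100, -0.47 with no offset and -0.42 with an offset of 16, and -0.29 to -0.28 with 1 experiment left out. That of the chromosome 2 loci, -0.09, was -0.13 with no offset and -0.13 to -0.076 with 1 experiment left out. Offsets compress dim probe sets by construction. With array centring or quantile normalization 21 of 23 mitochondrial genome probe sets were still below 0.

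Of the 32 named probe sets, 8 changed sign when 1 experiment was left out. They ranged from -0.053 to 0.16 for AT2G07695, -0.26 to 0.36 for AT2G07722, -0.24 to 0.40 for AT2G07724, -0.089 to 0.092 for AT2G07773, -0.16 to 0.032 for nad1 (257327_at), -0.16 to 0.044 for ccb203, -0.21 to 0.35 for matR (-0.058 without experiment 2) and -0.10 to 0.039 for orfX. The cause was not tested.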
